A study of Mus musculus with 25 samples.

Results

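The 9 genes described here are used to recognise tumour macrophages and their lipid-handling state, and were followed across a mouse melanoma treated with anti-CTLA-4. They were chosen by gene symbol, and all 9 of the 9 symbols (Trem2, Apoe, Spp1, Gpnmb, Cd68, Csf1r, Adgre1, Lpl and Fabp5) were found among the 55450 genes of the deposited count table. The tumours grew from B2905 cells, a melanoma line also called M4, implanted in C57BL/6 mice, and whole tumours were taken for RNA sequencing. The antibodies were given at 10 mg/kg in repeated doses over 2 weeks, starting when tumours had reached 75 mm3 on average, and outcome was scored 10 to 11 days after the last dose. The control group was 5 tumours given the isotype antibody IgG2b. Of 30 mice given anti-CTLA-4, tumours of 20 are described here and the others were not analysed here. These 20 were split by their own course into 8 responders that shrank, 6 stable tumours that kept their size and 6 non-responders that kept growing. All 4 groups share the mouse strain and the single implanted line, no engineered allele was named, and the age of the mice was not given. The outcome groups were not assigned in advance, so a difference between them goes with outcome and not with a treatment.

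Tumour macrophages derive largely from blood monocytes that depend on signals through the CSF1 receptor, encoded by Csf1r. A part of them takes up lipid from dying cells and turns on a programme led by Trem2, a lipid-sensing receptor that signals through the adaptor DAP12, with Apoe, Lpl, Fabp5, Spp1 and Gpnmb among its genes. Gpnmb is also a gene of pigment cells, where the transcription factor MITF drives it, so in a whole melanoma its RNA can come from tumour cells as well as from macrophages. In RNA from a whole tumour, fewer cells of a type and less RNA per cell cannot be told apart.

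The libraries held 8.76 M to 34.3 M estimated counts. Values are given as CPM (counts divided by the library size in M) after scaling the libraries by the trimmed mean of M values. The share of counts in protein-coding genes was 23.8 to 87.0% in responders, with 7 of 8 under 75%, against 83.8 to 89.2% in stable tumours, 82.9 to 88.4% in non-responders and 86.4 to 88.4% in controls. This low share moves with the responder group and cannot be told apart from it. Macrophages could be recognised in every group by markers outside the 9 genes: the 14 macrophage markers summed to 2157 to 3212 CPM in the stable group, 1080.0 to 3016 CPM in responders, 804 to 2477 CPM in non-responders and 601 to 1015 CPM in controls, and none was at 0 in every tumour of a group.

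The genes were read against the GRCm38 annotation (GENCODE M21), in which all 9 are protein-coding. Trem2 (ENSMUSG00000023992.14) lies on chr17:48346401-48354147 and Adgre1 (ENSMUSG00000004730.15) on chr17:57358691-57483527, both on the plus strand. Apoe (ENSMUSG00000002985.16) lies on chr7:19696109-19699188, minus strand. Spp1 (ENSMUSG00000029304.14) lies on chr5:104435118-104441050, plus strand. Gpnmb (ENSMUSG00000029816.10) lies on chr6:49036546-49070929, plus strand. Cd68 (ENSMUSG00000018774.13) lies on chr11:69664213-69666153, minus strand. Lpl (ENSMUSG00000015568.16) lies on chr8:68880491-68907448 and Fabp5 (ENSMUSG00000027533.10) on chr3:10012548-10016607, both on the plus strand.

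Promoters of 3 of the genes are printed because the results turn on how Trem2, Cd68 and Gpnmb parted from each other: Trem2 and Cd68 are genes of macrophages, and Gpnmb is shared with pigment cells. Each run is the 250 bases before the transcription start in RefSeq's GRCm38.p6 annotation, read on the gene's own strand. Capitals mark the letters GAGGAA or their reverse complement TTCCTC, a core that the myeloid factor PU.1 binds. The windows are chr17:48346151-48346400 (plus) for Trem2, chr11:69666171-69666420 (minus) for Cd68 and chr6:49036268-49036517 (plus) for Gpnmb.
Trem2: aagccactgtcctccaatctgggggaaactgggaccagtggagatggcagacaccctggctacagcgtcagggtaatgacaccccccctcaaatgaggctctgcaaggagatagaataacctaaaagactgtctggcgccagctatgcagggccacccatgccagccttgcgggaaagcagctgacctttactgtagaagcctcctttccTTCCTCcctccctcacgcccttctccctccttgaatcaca
Cd68: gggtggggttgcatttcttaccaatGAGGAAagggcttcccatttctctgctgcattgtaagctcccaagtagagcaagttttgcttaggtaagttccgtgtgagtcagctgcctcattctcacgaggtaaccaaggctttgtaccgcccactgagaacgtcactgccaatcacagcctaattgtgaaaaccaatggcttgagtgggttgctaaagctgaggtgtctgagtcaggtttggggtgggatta
Gpnmb: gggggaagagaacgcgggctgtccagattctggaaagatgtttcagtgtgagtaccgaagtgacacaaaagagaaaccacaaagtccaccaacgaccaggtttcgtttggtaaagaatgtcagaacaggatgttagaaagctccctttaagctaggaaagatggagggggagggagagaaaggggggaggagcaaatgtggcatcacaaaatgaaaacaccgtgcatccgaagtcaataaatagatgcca
The Trem2 window held 1 match, 40 bases before the start, the Cd68 window held 1 match, 225 bases before the start, and the Gpnmb window held none. The windows of Apoe and Spp1, not printed, were mixed within each gene. Separate Apoe windows held a match 250 and 132 bases before their starts, and another Apoe window held none. An Spp1 window held 1 match, 113 bases before its start, and another held none. Of 32851 windows of the same length, 23.3% held this core on either strand. The letters CATGTG and CACGTG, the E-boxes to which MITF binds, were also searched on both strands. They were in none of the 8 windows kept, from 5 of the 9 genes, against 12.3% and 6.02% of all windows. Any window of Csf1r was left out, so these results do not cover that gene. A match here is a description of letters and not a binding site.

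Stable tumours stood apart from controls in 7 of the 9 genes. Csf1r, Trem2, Apoe, Cd68, Adgre1 and Lpl were higher and Gpnmb was lower, each with no overlap between the 6 stable and 5 control tumours. The share of all tested genes without such overlap was not computed. Spp1 and Fabp5 did not pass the test. The calls were thus 6 of 9 genes higher and 1 lower at an adjusted p under 0.05 over all 18031 genes tested. In this comparison 22.2% of tested genes were higher, 19.6% lower and 41.8% called in either direction. All 7 calls held when each of the 11 tumours was left out in turn. The median log2 fold change of the 9 genes was 1.91, beside 0.02 over all tested genes.

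Responders against controls also had 6 genes higher (Csf1r, Trem2, Apoe, Cd68, Adgre1 and Lpl) and Gpnmb lower, with 65% of tested genes called, 36.1% higher and 28.9% lower. Non-responders against controls had 4 higher (Csf1r, Lpl, Adgre1 and Apoe) and Gpnmb lower, with 13.9% of tested genes called, 10.6% higher and 3.29% lower. These comparisons share the 5 control tumours with the one before. The median log2 fold change of the 9 genes was 0.81 in responders and 1.07 in non-responders, beside 0.16 and 0.04 over all tested genes.

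Between the outcome groups 2 to 5 of the 9 genes were called. Stable tumours exceeded non-responders in Cd68, Trem2, Apoe and Csf1r and were lower in Gpnmb, 5 of 9 genes where 14.9% of tested genes were called, 7.08% higher and 7.86% lower. Without non-responder 1 or without non-responder 2 that count was 0 of 9 in edgeR, with 6 of 9 at an unadjusted p under 0.05, while 10.3% and 8.17% of tested genes were still called. Responders exceeded non-responders in Trem2 alone and were lower in Gpnmb, 2 of 9 genes where 48.9% of tested genes were called, 25.2% higher and 23.8% lower. Responders fell below stable tumours in Adgre1, Lpl, Cd68 and Apoe, 4 of 9 genes lower where 38.2% of tested genes were called, 20.5% higher and 17.8% lower. Once the coding share entered the edgeR model as a covariate, 0 of all 18031 genes were called between responders and stable tumours, the 9 genes and the lists below included. At an unadjusted p under 0.05 there were 2296 genes (12.7%), none of them among the 9.

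**Figure D1:**
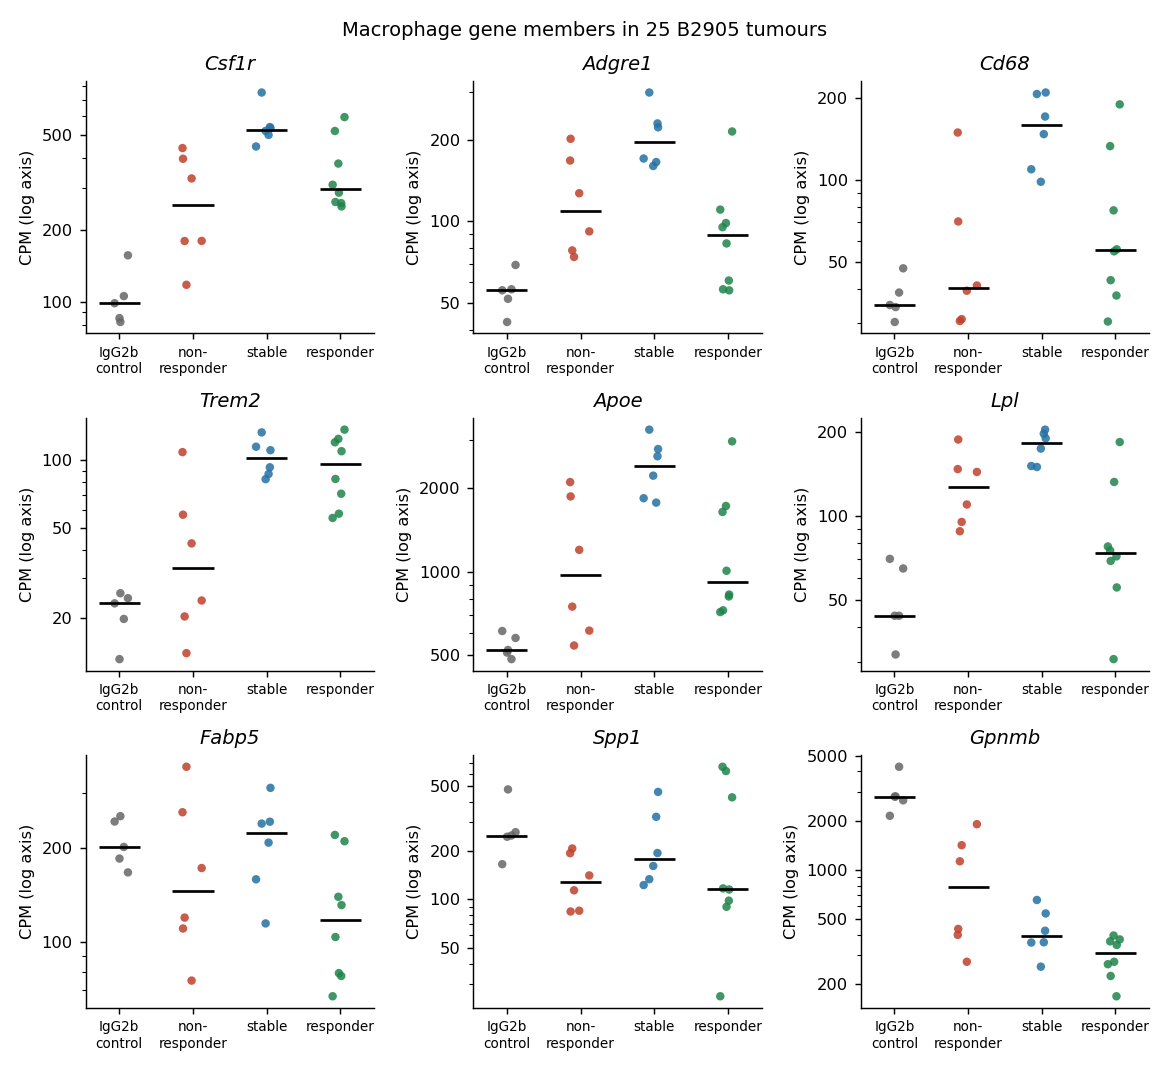
Level of each of the 9 genes in every tumour (CPM, log axis) by group, with a line at the group median. Gpnmb is highest in controls, where the 5 tumours start at 2141 CPM, whereas Csf1r, Trem2 and Apoe are lowest there.

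Csf1r encodes the receptor for CSF1 and IL-34 on which macrophage survival depends. The gene (ENSMUSG00000024621.16) lies on chr18:61100598-61132149, plus strand. Control tumours had 82.1, 105, 98.4, 85.2 and 156 CPM. The lowest, median and highest values were 118, 254 and 440.3 CPM in non-responders, 251, 298 and 594 CPM in responders and, among stable tumours, 447, 527 and 753 CPM. Every responder and every stable tumour exceeded every control, every stable tumour exceeded every non-responder, and responders overlapped both other treated groups. Csf1r was 5.20-fold higher in stable tumours than in controls (log2 fold change 2.38, SE 0.31, adjusted p = 2.98e-06), 3.39-fold higher in responders (1.76, SE 0.30, adjusted p = 2.22e-05) and 2.60-fold higher in non-responders (1.38, SE 0.30, adjusted p = 0.00326). Stable tumours were 2.00-fold above non-responders (1.00, SE 0.28, adjusted p = 0.0196), but this did not pass without stable tumour 3 or non-responder 1 or 2, with adjusted p up to 0.0576. Responders did not pass the test against non-responders (0.38, 95% interval -0.16 to 0.93, adjusted p = 0.227) or against stable tumours (-0.62, 95% interval -1.15 to -0.08, adjusted p = 0.0616). The latter passed in DESeq2 (adjusted p = 0.0462) and when only these groups entered the edgeR fit (0.0457).

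Against controls the ligands and partners of this receptor moved in one direction. Of 12 genes for CSF1R ligands, related receptors and myeloid transcription factors, 12 were higher in stable tumours and 12 in responders than in controls, and 11 in non-responders, with none lower. Of the 14 macrophage markers, 12 were higher in stable tumours, 10 in responders and 11 in non-responders than in controls. Of these markers 1 was lower, in responders. Responders had 1 higher and 8 lower than stable tumours, where 20.5% of tested genes were higher and 17.8% lower. Against non-responders, responders had 2 higher and 1 lower, and stable tumours 3 higher and none lower. Markers of other cell types moved with the list too. Of 7 T cell markers 7 were higher than in controls in each treated group. Of 6 dendritic cell markers 5, 5 and 4 were higher in stable tumours, responders and non-responders. In the same order it was 3, 5 and 1 of 5 neutrophil markers, and 5, 4 and 4 of 6 fibroblast markers. The T cell markers summed to 8.36 to 25.7 CPM in controls, against 137 to 209 CPM in the stable group, 82.4 to 238 CPM in responders and 21.8 to 187 CPM in non-responders. The dendritic cell markers summed to 10.6 to 24.6 CPM in controls, against 47.0 to 77.2 CPM in the stable group, 29.3 to 67.2 CPM in responders and 17.7 to 55.8 CPM in non-responders. Both sums were lowest in controls by group median. The neutrophil markers summed to 2.83 to 5.07 CPM in controls, against 27.9 to 57.5 CPM in the stable group, 30.2 to 68.4 CPM in responders and 3.61 to 34.1 CPM in non-responders. The fibroblast markers summed to 1542 to 3533 CPM in controls, against 4632 to 8980.5 CPM in the stable group, 4645 to 11141 CPM in responders and 3111 to 8582 CPM in non-responders. None of these markers was at 0 throughout a group, and their part in the rise of this list was not tested. Csf1, the main ligand, had log2 fold changes of 1.54, 1.23 and 0.86 in stable tumours, responders and non-responders over controls, and Il34, the other ligand, had 1.21, 1.15 and 0.78, all past the test. Against non-responders, 9 of 12 were higher in stable tumours and 6 of 12 in responders. Csf2ra, the GM-CSF receptor alpha chain, and Runx1, a blood cell transcription factor, had the largest log2 differences among those called in responders over non-responders (1.56 and 1.43), and Inpp5d, a lipid phosphatase of immune cells, and Cebpa, a myeloid transcription factor, the smallest (0.62 and 0.90). In stable tumours over non-responders the largest were Csf2rb, the shared beta chain, at 1.30 and Csf2ra at 1.11, and the smallest called were the adaptor Grb2 at 0.45 and Csf1 at 0.68. The median log2 fold change of the list against non-responders was 0.86 in the stable group and 0.55 in responders. Over all tested genes these medians were -0.02 and 0.05. Csf1 did not pass in responders over non-responders (0.36, adjusted p = 0.0540).

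Adgre1 encodes F4/80, a surface receptor used to identify mature mouse macrophages. Control tumours had 51.9, 56.3, 55.8, 42.7 and 69.2 CPM. Stable tumours had a lowest, median and highest value of 159.9, 196 and 298 CPM, responders of 55.8, 89.1 and 214 CPM and non-responders of 74.0, 109 and 201 CPM. Every non-responder and every stable tumour exceeded every control, 5 of 8 responders did, and 7 of 8 responders lay below every stable tumour, with responder 5 at 214 CPM as the exception. Adgre1 was 3.76-fold higher in stable tumours than in controls (1.91, SE 0.32, adjusted p = 4.13e-05), 2.24-fold in non-responders (1.16, SE 0.31, adjusted p = 0.0139) and 1.76-fold in responders (0.81, SE 0.30, adjusted p = 0.0188), the last not called without responder 5 or control 4 (adjusted p up to 0.0547). Responders were 2.14-fold below stable tumours (log2 fold change -1.10, SE 0.27, adjusted p = 0.00529). That difference held with each of the 14 tumours left out, at -1.37 to -0.965, but with the coding share in the model it was -0.600 with adjusted p = 0.396. Responder 5 was also the responder with the highest coding share, 87.0%.

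Cd68 encodes a scavenger receptor of late endosomes and lysosomes found throughout the macrophage lineage. Control tumours had 34.3, 38.8, 34.9, 30.2 and 47.5 CPM. After anti-CTLA-4 the lowest, median and highest were 98.6, 159 and 209 CPM in stable tumours, 30.5, 40.2 and 149 CPM in non-responders and 30.4, 55.3 and 189 CPM in responders. Stable tumours exceeded every control, while non-responders and responders overlapped both controls and stable tumours; non-responder 6, at 149 CPM, lay far above the other 5. Cd68 was 4.23-fold higher in stable tumours than in controls (2.08, SE 0.46, adjusted p = 0.000721) and 2.60-fold higher than in non-responders (1.38, SE 0.42, adjusted p = 0.0290). Responders were 2.10-fold above controls (1.07, SE 0.42, adjusted p = 0.0300) and 2.01-fold below stable tumours (-1.01, SE 0.38, adjusted p = 0.0405). Non-responders did not pass against controls (0.70, 95% interval -0.20 to 1.60, adjusted p = 0.300), nor responders against non-responders (0.37, 95% interval -0.43 to 1.17, adjusted p = 0.440). The call against non-responders no longer held without stable tumour 2, 3 or 4 or non-responder 1, 2, 3 or 5 (adjusted p up to 0.0771), that of responders over controls without responder 2 or 5 or control 1, 2, 3 or 4 (up to 0.0899), and that of responders against stable tumours without responder 1, 3, 4, 6, 7 or 8 or stable tumour 2, 3, 4 or 5 (up to 0.0884). The last was also lost without responders 1 and 4, whose coding shares were under 60% (adjusted p = 0.133), and with the coding share as a covariate (adjusted p = 0.592).

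Trem2 was the one gene of the 9 that passed the edgeR test upward in responders against non-responders. It encodes the lipid and apolipoprotein receptor that marks lipid-associated macrophages. Control tumours had 25.7, 19.7, 23.2, 13.1 and 24.4 CPM. The lowest, median and highest values were 13.9, 33.3 and 109 CPM in non-responders, 55.5, 96.2 and 137 CPM in responders and, among stable tumours, 82.5, 102 and 133 CPM. Every responder and every stable tumour exceeded every control, and non-responders spread from the control range up to the middle of the responder range, with non-responder 6 (109 CPM) higher than 4 of the 8 responders. Trem2 was 4.88-fold higher in stable tumours than in controls (2.29, SE 0.39, adjusted p = 5.63e-05) and 4.47-fold higher in responders (2.16, SE 0.38, adjusted p = 3.82e-05). Non-responders did not pass against controls (1.07, 95% interval 0.29 to 1.85, adjusted p = 0.0600), though they did in DESeq2 (adjusted p = 0.0342).

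Responders exceeded non-responders in Trem2 by 2.13-fold (1.09, SE 0.34, adjusted p = 0.0113), and stable tumours exceeded them by 2.33-fold (1.22, SE 0.36, adjusted p = 0.0245). Responders and stable tumours did not differ past the test, with a log2 difference of -0.13, 95% interval -0.80 to 0.55, adjusted p = 0.779. The responder difference stayed called with each of the 14 tumours left out (0.905 to 1.58) but not with the coding share as a covariate (1.15, adjusted p = 0.0676), a fit that called 10% of tested genes in place of 48.9%. The stable difference no longer passed without stable tumour 3 or non-responder 1, 2 or 3, with adjusted p up to 0.0652.

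Of 14 genes for the TREM2 and DAP12 signalling chain, 12 were higher in stable tumours, 12 in responders and 10 in non-responders than in controls, and 1 was lower, in responders. Tyrobp, which encodes DAP12 itself, had log2 fold changes over controls of 2.42, 1.59 and 1.39 in these groups, all past the test. Unlike Trem2, Tyrobp did not pass in responders over non-responders (0.20, adjusted p = 0.647), though the difference between the genes was not tested. In that comparison 7 of 14 were higher and 1 lower. Ms4a4a, a membrane protein that associates with TREM2, and Card9, an adaptor downstream of SYK, had the largest called log2 differences (1.49 and 1.41). Adam10, a protease that sheds TREM2, was the one that fell (-0.37), and Plcg2, the phospholipase downstream of SYK, was the lowest of the others (0.44). In stable tumours over non-responders 8 of 14 were higher, from Adam17, another such protease, at 0.57 and Plcg2 at 0.83 to the kinase Syk at 1.06 and Card9 at 1.22. In responders against stable tumours 3 of 14 were lower and none higher, where 17.8% of tested genes were lower, and none of these calls was left with the coding share as a covariate. The T cell, dendritic cell, neutrophil and fibroblast markers given above rose beside this list too, and their part in it was not tested. The median over the 14 genes against non-responders was 0.87 in the stable group and 0.45 in responders.

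Apoe encodes the apolipoprotein that carries cholesterol out of macrophages and is itself a ligand of TREM2. Control tumours had 522, 484, 611, 511 and 577 CPM. Stable tumours had a lowest, median and highest value of 1778, 2419.9 and 3262 CPM, responders of 716, 919 and 2959 CPM and non-responders of 542, 975 and 2109 CPM. Every responder and every stable tumour exceeded every control, 5 of 6 non-responders did, and 7 of 8 responders lay below every stable tumour, responder 5 at 2959 CPM being the exception. Apoe was 4.47-fold higher in stable tumours than in controls (2.16, SE 0.39, adjusted p = 9.44e-05), 2.41-fold in responders (1.27, SE 0.36, adjusted p = 0.00381) and 2.18-fold in non-responders (1.13, SE 0.38, adjusted p = 0.0464). Responders and non-responders did not differ past the test (0.14, 95% interval -0.53 to 0.82, adjusted p = 0.734).

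Stable tumours stood 2.05-fold above non-responders in Apoe (1.03, SE 0.35, adjusted p = 0.0498), and responders were 1.85-fold below stable tumours (-0.89, SE 0.32, adjusted p = 0.0344). Apoe in non-responders over controls was lost without non-responder 4, 5 or 6 or control 1, 2, 3, 4 or 5 (adjusted p up to 0.131), in stable tumours over non-responders without stable tumour 1, 2, 3 or 4 or non-responder 1, 2, 3 or 5 (up to 0.121), and in responders against stable tumours without responder 1, 4, 6, 7 or 8 or stable tumour 2, 3 or 4 (up to 0.0784). The last was also lost without responders 1 and 4 together (adjusted p = 0.129) and with the coding share as a covariate (-0.408, adjusted p = 0.625).

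Apoe is a target of the liver X receptors (LXR), which sense oxidised cholesterol and switch on its export. Of 14 LXR genes and targets, 7 were higher and 1 lower in stable tumours than in controls, 7 higher and 2 lower in responders, and 3 higher and 1 lower in non-responders. Nr1h3, which encodes LXR alpha, was 5.67-fold, 4.88-fold and 3.57-fold higher in these groups than in controls, all past the test, and did not pass between outcome groups. Abca1 and Abcg1, the cholesterol exporters, had log2 fold changes of 1.35 and 2.47 in stable tumours over controls and 0.96 and 1.35 in stable tumours over non-responders, all past the test. In that last comparison 7 of 14 were higher and 1 lower, the lower one being Lpcat3, a phospholipid-remodelling enzyme (-0.58), and the smallest rise being Nr1h2, LXR beta (0.30). In responders over non-responders 3 were higher and 2 lower, with Abca1 at 0.82 and Abca7, a related transporter, at 0.79, and with Lpcat3 at -0.81 and Scd1, the fatty acid desaturase, at -0.54. The list's median in this comparison was 0.30, and 0.54 for stable tumours.

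Lpl separated non-responders from controls as fully as it did stable tumours. It encodes lipoprotein lipase, which releases fatty acids from circulating lipoproteins and is made by macrophages, adipocytes and muscle. Control tumours had 32.0, 44.0, 70.3, 44.0 and 65.0 CPM. After anti-CTLA-4 the lowest, median and highest were 150.1, 182 and 204 CPM in stable tumours, 88.3, 127 and 188 CPM in non-responders and 30.8, 73.6 and 184 CPM in responders. Every non-responder and every stable tumour exceeded every control, whereas responders ranged from below the lowest control, in responder 3, to the stable range, in responder 5. Lpl was 3.49-fold higher in stable tumours than in controls (1.80, SE 0.32, adjusted p = 8.59e-05), 2.53-fold in non-responders (1.34, SE 0.32, adjusted p = 0.00605) and 1.71-fold in responders (0.77, SE 0.30, adjusted p = 0.0261), the last lost without responder 5 or 6 or control 1, 2 or 4 (adjusted p up to 0.0847).

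Responders were 2.04-fold below stable tumours in Lpl (-1.03, SE 0.27, adjusted p = 0.00765), with 7 of 8 below every stable tumour. The difference held with each tumour left out (-1.28 to -0.898) and became -0.640, adjusted p = 0.405, with the coding share as a covariate. Against non-responders responders did not pass, although 6 of 8 lay below every non-responder (-0.56, 95% interval -1.13 to 0.00, adjusted p = 0.0899), and stable tumours did not pass either (0.47, 95% interval -0.14 to 1.07, adjusted p = 0.304). The 6 adipocyte markers summed to 24.0 to 159 CPM in the stable group, 10.9 to 79.7 CPM in responders, 21.0 to 97.5 CPM in non-responders and 16.1 to 70.3 CPM in controls. The 6 skeletal muscle markers summed to 255 to 734, 27.2 to 563, 81.9 to 1059 and 47.8 to 1053 CPM in the same order, no marker of either list was at 0 throughout a group, and their part in the Lpl values was not tested.

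Fabp5, a cytosolic fatty acid carrier of macrophages, keratinocytes and many proliferating cells, passed in none of the 6 edgeR comparisons, and none but responders against controls and against stable tumours had an unadjusted p under 0.05. Control tumours had 252, 201, 243, 185 and 167 CPM. The lowest, median and highest values were 75.1, 146 and 363 CPM in non-responders, 66.9, 117 and 219.8 CPM in responders and, among stable tumours, 114, 223 and 311 CPM. All 4 groups overlapped, and 6 of 8 responders lay below every control. The log2 difference was -0.71, 95% interval -1.38 to -0.03, adjusted p = 0.0632 in responders over controls, -0.72, 95% interval -1.37 to -0.08, adjusted p = 0.0702 in responders over stable tumours and 0.02, 95% interval -0.71 to 0.75, adjusted p = 0.975 in stable tumours over controls. The 7 keratinocyte markers summed to 9.40 to 92.1 CPM in the stable group, 1.93 to 1344 CPM in responders, 3.22 to 311 CPM in non-responders and 8.90 to 518 CPM in controls, none was at 0 throughout a group, and their part in the Fabp5 values was not tested.

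The wider genes of lipoprotein lipase and fatty acid handling split, with a median log2 fold change of -0.40 in responders against non-responders. Of 17 tested (of 19 listed), 4 were higher and 6 lower in stable tumours than in controls, 4 higher and 6 lower in responders than in controls, and 1 higher and 7 lower in responders than in non-responders. Gpihbp1, which anchors the lipase to the capillary wall, fell in responders against controls and against non-responders (log2 fold changes -3.10 and -2.57), as did Angptl4, an inhibitor of the lipase (-1.75 and -0.93). Fabp3, the fatty acid carrier of muscle, fell in responders (-3.10) and in stable tumours (-1.94) against non-responders, and Gpihbp1 fell in the latter (-1.58). Ppard, a nuclear receptor for fatty acids, was the only one higher in responders than in non-responders (0.56), and the lipoprotein receptor Vldlr fell least (-0.45). Acsl1, which activates fatty acids, and the triglyceride lipase Pnpla2 exceeded the non-responder level in stable tumours (1.23 and 0.48). Gpihbp1 is one of 5 endothelial markers, all 5 of which were lower in responders than in non-responders and whose sum was 128 to 259 CPM in non-responders and 37.7 to 92.9 CPM in responders; their part in the fall of Gpihbp1 was not tested.

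Spp1 had the widest range within a group of the 9 genes and passed in none of the 6 edgeR comparisons, nor did it reach an unadjusted p under 0.05. It encodes osteopontin, a secreted phosphoprotein that binds integrins and CD44 and is made by macrophages, osteoclasts and many carcinomas. Control tumours had 479.7, 249, 165, 244 and 261 CPM. Stable tumours had a lowest, median and highest value of 123, 177 and 463 CPM, responders of 25.1, 116 and 662 CPM and non-responders of 84.1, 127 and 207 CPM. The 8 responders spanned a 26.4-fold range, with responders 2, 3 and 5 (662, 623 and 428 CPM) above every non-responder and responder 7 (25.1 CPM) below all. The log2 difference was 0.98, 95% interval -0.14 to 2.09, adjusted p = 0.134 in responders over non-responders and -1.03, 95% interval -2.25 to 0.19, adjusted p = 0.258 in non-responders over controls.

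Of the 9 integrin and CD44 genes for osteopontin receptors, 2 were higher and 5 lower in responders than in controls, and 1 higher and 5 lower in responders than in non-responders. Itga5, an integrin chain of the fibronectin receptor, was the one that rose in the latter (0.74), and Itga8 and Itgb1, the chains of the nephronectin receptor, had the largest falls (-0.80 and -0.65), Itgav the smallest (-0.38). In stable tumours against non-responders Itgb5, a partner of the alpha V chain, was higher (0.69) and Itga4, the VLA-4 alpha chain, lower (-0.66). The list's median was -0.38 in responders against non-responders. Cd44 fell in responders against controls (-0.55) and did not pass between responders and non-responders (-0.04, adjusted p = 0.878).

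Gpnmb ran opposite to the 6 genes that rose against controls. It encodes a heavily glycosylated membrane protein of lysosomes and melanosomes, high in pigment cells and in lipid-loaded macrophages. Control tumours had 2812, 4268, 2141, 2803 and 2662 CPM. After anti-CTLA-4 the lowest, median and highest were 256, 392 and 654 CPM in stable tumours, 274, 781 and 1902 CPM in non-responders and 169, 311 and 396 CPM in responders. Every treated tumour of all 3 outcomes lay below every control, and responders and stable tumours overlapped the lower non-responders. Gpnmb fell by 3.28 (log2) in responders against controls (SE 0.36, adjusted p = 1.89e-07), by 2.76 in stable tumours (SE 0.39, adjusted p = 6.54e-06) and by 1.67 in non-responders (SE 0.38, adjusted p = 0.00447).

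Against non-responders Gpnmb fell by 1.62 in responders (SE 0.34, adjusted p = 0.000710) and by 1.10 in stable tumours (SE 0.36, adjusted p = 0.0432). The responder call held with each of the 14 tumours left out (-1.80 to -1.27) and with the coding share as a covariate, while the stable call missed the threshold without stable tumour 1, 2, 4, 5 or 6 or non-responder 1, 2 or 3 (adjusted p up to 0.157). Responders and stable tumours did not differ past the test (-0.52, 95% interval -1.21 to 0.17, adjusted p = 0.222).

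Pigment cell genes moved with Gpnmb. The 8 melanocyte markers summed to 228 to 505 CPM in the stable group, 304 to 725 CPM in responders, 726 to 14062 CPM in non-responders and 10684 to 17512 CPM in controls, and none was at 0 throughout a group. All 8 were lower in stable tumours and in responders than in controls and than in non-responders, 1 of 8 was lower in non-responders than in controls, and in edgeR 0 of 8 were called between responders and stable tumours, with 0 of 8 at an unadjusted p under 0.05. Within non-responders the 3 tumours with the most Gpnmb also had the 3 highest sums, though not in the same order: non-responders 1, 2 and 3 had 1902, 1128 and 1415 CPM of Gpnmb with marker sums of 3698, 7265 and 14062 CPM. Non-responders 4, 5 and 6 had 435, 274 and 400.2 CPM of Gpnmb with sums of 1239, 908 and 726 CPM. The same tumours 4, 5 and 6 had 397, 328 and 440.3 CPM of Csf1r, above the 179.6, 179 and 118 CPM of tumours 1, 2 and 3. The part of pigment cells in the Gpnmb values was not tested.

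Among 10 genes for the MITF family and partners of Gpnmb, Mitf and Tfec went opposite ways. Mitf, the pigment cell member, had log2 fold changes of -2.48, -2.34 and -1.09 in responders, stable tumours and non-responders against controls, whereas Tfec, the family member of macrophages and osteoclasts, rose by 2.85, 2.98 and 1.77. Against non-responders Mitf had -1.39 in responders and -1.24 in stable tumours, and Tfec rose by 1.08 and 1.21. Pmel, the melanosome fibre protein closest in sequence to Gpnmb, had log2 fold changes of -5.15 and -5.96 in the same comparisons. Sdc4, a syndecan to which GPNMB binds, rose in responders over non-responders (0.45), and Tfe3, a lysosomal family member, rose in stable tumours over non-responders (0.41). The list had 5 higher and 4 lower of 10 in responders against controls, 5 and 3 in stable tumours, and 3 and 2 in non-responders, with medians of 0.20, 0.33 and -0.05.

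**Figure D2:**
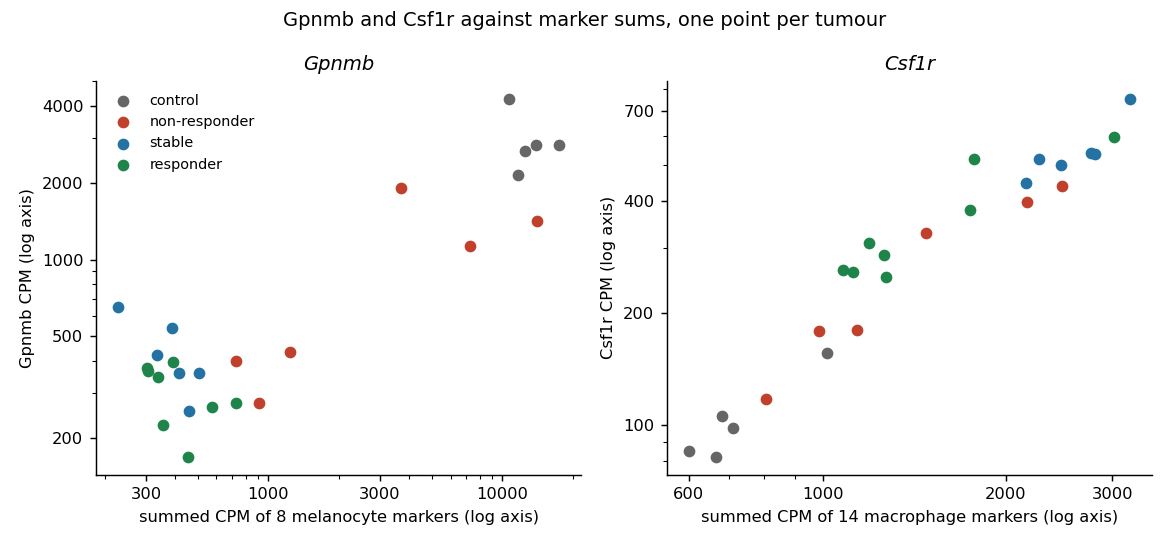
Gpnmb against the summed melanocyte markers (left) and Csf1r against the summed macrophage markers (right), one point per tumour, CPM on log axes. In the left panel non-responders 1, 2 and 3 lie at 1128 CPM of Gpnmb or more, toward the controls, and non-responders 4, 5 and 6 lie close to the responders and stable tumours.

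A list of 20 further genes described in lipid-associated macrophages did not move as one. Against controls 7 were higher and 3 lower in stable tumours, 5 higher and 7 lower in responders, and 4 higher and 1 lower in non-responders. Stable tumours had 5 higher than non-responders and none lower, led by Itgax, the CD11c integrin, at 1.33 and Msr1, a scavenger receptor, at 1.25, with Npc2, a lysosomal cholesterol carrier, at 0.90 and the protease Ctsz at 0.88 as the smallest. Responders had 1 higher than non-responders, Itgax at 0.97, and 4 lower. Of these 4, Cd5l, a secreted protein of resident macrophages, at -2.01 and Lgals1, a galectin of many cell types, at -1.30 fell most. The tetraspanin Cd63 fell least, at -0.66. Cd5l was near the floor, so the size of its fall rests on few counts. Its median was 0.46 CPM for non-responders, whereas responders had a median of 0.05 CPM with a lowest value of 0. Responders against stable tumours had 10 of 20 lower and none higher, with a median of -0.71 beside 0.01 and 17.8% lower over all tested genes, and none of the 10 calls was left with the coding share as a covariate.

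**Figure D3:**
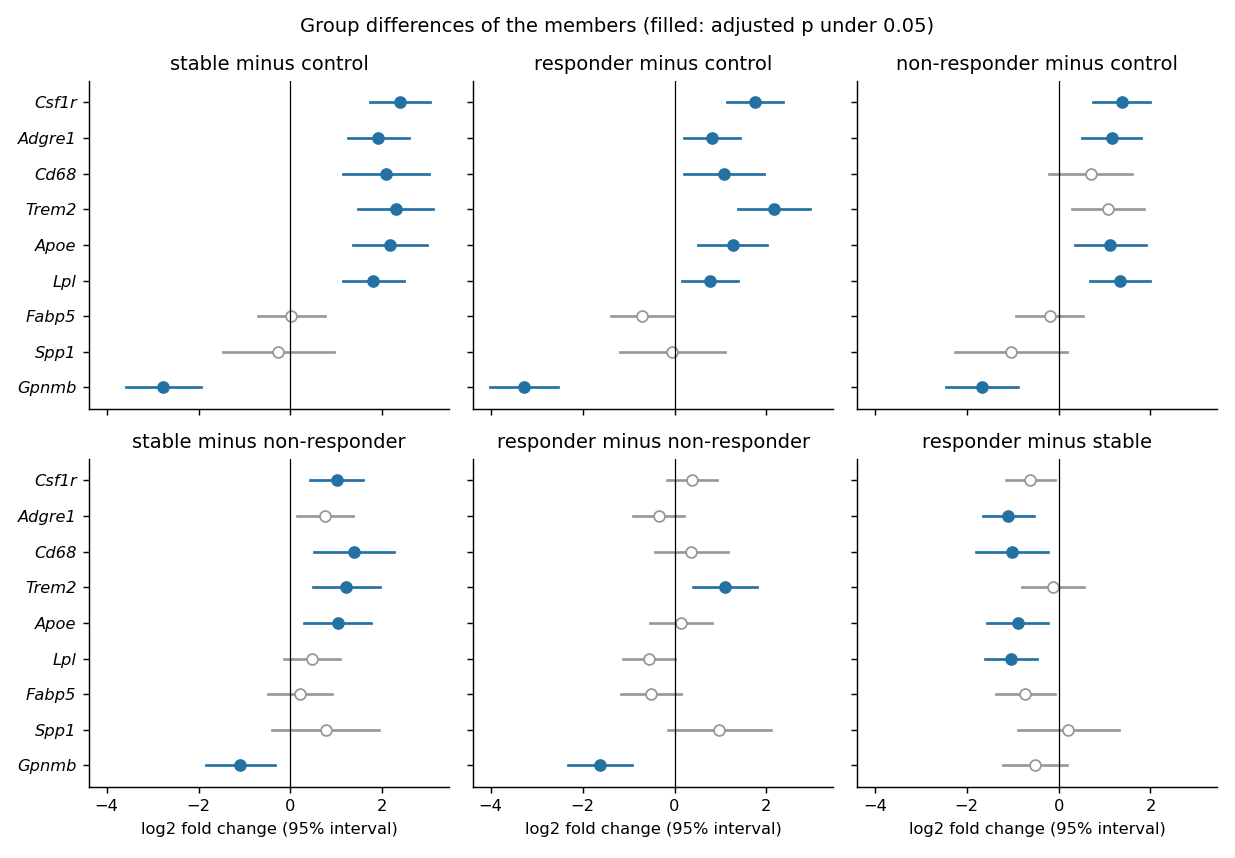
Log2 fold change of each of the 9 genes in the 6 comparisons, with 95% intervals from edgeR; filled points passed an adjusted p of 0.05. Stable tumours against controls show 6 genes to the right and Gpnmb to the left, and responders against non-responders show only Trem2 and Gpnmb filled.

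Each gene was next taken relative to Csf1r in the same tumour, a ratio that does not depend on how libraries are scaled, and tested with limma. Relative to Csf1r, responders had 1 of 8 genes higher than non-responders, Trem2, and 3 lower, Adgre1, Lpl and Gpnmb, where 31.4% of all genes were called, 3.89% higher and 27.5% lower. Trem2 was 14.8% of the Csf1r level in non-responders on average and 27.5% in responders, against 20.9% in controls and 19.1% in stable tumours. The log2 ratio rose by 0.90 in responders over non-responders (SE 0.24, adjusted p = 0.00714), and the call held with Adgre1 or Cd68 as the denominator and with each tumour left out. The groups overlapped, with 4 of 8 responders above every non-responder. No ratio fit had the coding share as a covariate. How far the ratio differences of responders go with that share was therefore not tested. These ratios depend on Csf1r as much as on the gene above the line.

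Adgre1 relative to Csf1r fell the other way. It averaged 26.6% of the Csf1r level in responders, 37.6% in the stable group, 47.5% in non-responders and 53.5% in controls. All 8 responders lay below all 6 non-responders and all 5 controls, with log2 differences of -0.85, SE 0.21, adjusted p = 0.00411 and -1.04, SE 0.23, adjusted p = 0.000118. Lpl relative to Csf1r differed by -1.16, SE 0.30, adjusted p = 0.00536 between responders and non-responders, with 7 of 8 responders below every non-responder. With Cd68 as the denominator the Adgre1 and Lpl calls were lost (adjusted p = 0.135 and 0.0787), and with Adgre1 as the denominator so were those of Lpl (0.449) and Gpnmb (0.128).

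Relative to Csf1r, none of the 8 genes passed between responders and stable tumours in limma (33.3% of all genes called, 32.9% higher and 0.355% lower), and 2 of them, Adgre1 and Cd68, had an unadjusted p under 0.05. Stable tumours differed from non-responders in Gpnmb alone (-1.95, SE 0.52, adjusted p = 0.00277; 73.5% of all genes called, 0.582% higher and 72.9% lower), so Trem2, Apoe and Cd68 did not differ from Csf1r past the test there. Against controls 7 of 8 ratios were lower in responders, where 74% of all genes were called, 3.33% higher and 70.6% lower. Stable tumours had 4 of 8 lower (89.7% of all genes called, 1.51% higher and 88.2% lower), and non-responders 4 of 8 (67.7% called, 0.865% higher and 66.9% lower). Spp1, Gpnmb and Fabp5 were lower relative to Csf1r in all 3 treated groups against controls, but relative to Cd68 neither Spp1 nor Fabp5 was called in non-responders (adjusted p = 0.177 and 0.433), and relative to Adgre1 Spp1 was not called in responders (0.0654). Trem2 was not called in any of these 3 (responders 0.39, 95% interval -0.13 to 0.92, adjusted p = 0.173), although with Adgre1 or Cd68 as the denominator it was higher in responders.

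**Figure D4:**
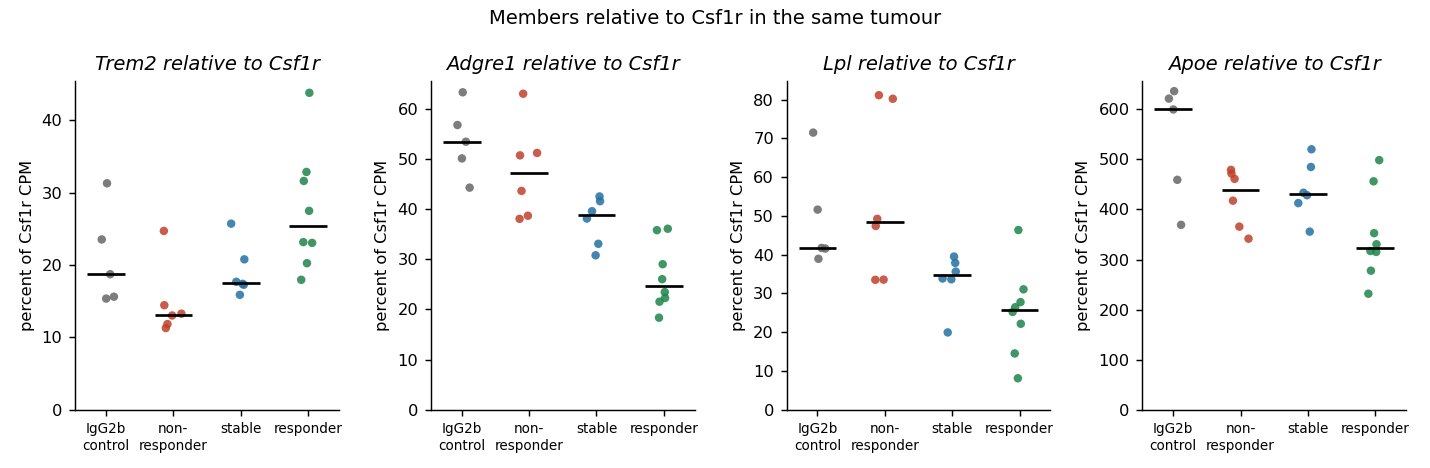
Trem2, Adgre1, Lpl and Apoe as a percentage of the Csf1r level of the same tumour (linear axis), by group with a line at the median. All 8 responders lie below all 6 non-responders for Adgre1, while 4 of 8 responders lie above every non-responder for Trem2.

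Levels of different genes were compared on the deposited RPKM scale, which divides by transcript length and held 8 of the 9 genes; Adgre1 was not analysed here. In controls the median RPKM ran from Gpnmb at 587, Apoe at 259, Fabp5 at 175 and Spp1 at 125 down to Cd68 at 19.3, Csf1r at 18.3, Trem2 at 12.3 and Lpl at 9.90. In stable tumours Apoe led at 1216, followed by Fabp5 at 176, Csf1r at 91.0, Spp1 at 86.5, Gpnmb at 81.7, Cd68 at 80.1, Trem2 at 53.4 and Lpl at 39.9. Gpnmb thus went from the first of the 8 genes by level in controls to the fifth in stable tumours, where Csf1r, Spp1, Gpnmb and Cd68 lay close together and their ranges overlapped.

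Across 25 tumours, after the group means were subtracted, the closest of 13410 genes to Csf1r by correlation of log2 levels were Mpeg1 at 0.96, P2ry6 at 0.94 and Vsir at 0.94, and to Cd68 Fcgr3 at 0.97, Lrpap1 at 0.96 and Emb at 0.96. The closest to Adgre1 were Lst1 at 0.95, Dse at 0.94 and Hacd4 at 0.93, to Trem2 Cxcl16 at 0.91, Lyz2 at 0.90 and Ctss at 0.90 and to Apoe C1qc at 0.95, Pla2g15 at 0.93 and Prcp at 0.93. The closest to Fabp5 were Psmd8 at 0.93, Hif1a at 0.92 and Atp6v1d at 0.92, and to Spp1 Plp2 at 0.91, Emp1 at 0.86 and Timp1 at 0.86. The closest to Lpl were Lyz1 at 0.85, Cygb at 0.82 and Fxyd6 at 0.80, and among the closest to Gpnmb were Cerk at 0.87 and Atp6v1b2 at 0.84. Between members the same measure was 0.80 for Apoe with Trem2, 0.06 for Fabp5 with Csf1r, 0.62 for Fabp5 with Spp1 and -0.33 for Gpnmb with Csf1r. These values describe 25 libraries that differ in depth and coding share, which neighbouring genes share.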

How the data were processed

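RNA from 25 whole tumours was sequenced. Per the submitters' processing notes, reads were handled with bcl2fastq 2.17, Trimmomatic, STAR 2.5.1 and RSEM 1.2.22 on mm10; their roles and order were not stated, and the labels name both a total RNA kit and polyA RNA. The authors deposited estimated counts per gene (5.64% of values not whole) and a table of RPKM values (how it was made is not stated in the labels). The planned tests took whole counts, so the estimated counts were rounded first.

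edgeR 4.0.16 (filterByExpr by group, TMM, robust quasi-likelihood, all 25 tumours) tested 18031 genes in 6 comparisons, with Benjamini-Hochberg adjustment over all tested genes and calls at 0.05. Ratios to Csf1r were tested with limma 3.58.1 on log2 CPM with a prior count of 2. All tests were two-sided. The edgeR and ratio tests of responders against non-responders were run on simulated data. Far fewer genes differed there than were called here, and the low coding share of responders was not simulated. The other comparisons and the alternatives were not checked in this way. DESeq2 1.42.0 and other settings were alternatives. The members and lists were chosen with earlier results of these data known. Named besides the 9 members are the 2 highest and 2 lowest called genes of each list in the 2 comparisons with non-responders, 11 genes of direct role, and the 3 genes most alike in pattern, of which 1 is not reported here. Tumours were numbered in accession order, which pairs none; each is taken as 1 mouse.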

Additional observations from a re-analysis of the deposited data

Results flagged for a closer look

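Within the 36 sets of values (9 genes in 4 groups), 4 held a tumour whose gap to its nearest neighbour was a large part of the group's range by Dixon's 95% criterion, a criterion that chance meets in about 1 in 20 groups. Responder 5 stood above the other responders in Apoe, at 2959 CPM, and in Adgre1, at 214 CPM. Non-responder 6 stood above the other non-responders in Cd68, at 149 CPM. Stable tumour 3 stood above the other stable tumours in Csf1r, at 753 CPM.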

How the results depend on the processing

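No paired analysis was possible because the labels number tumours by animal and share no replicate number between groups. Alternatives to the edgeR test were DESeq2 and limma on RPKM. Within edgeR they were RLE size factors, no low-count filter, only the compared groups, protein-coding genes and the coding share as a covariate. Ratios were refitted with other denominators, another prior count or no low-count filter, and never with the covariate. Both kinds of fit were also run with each tumour left out. Of the single-gene results under settings that left out no single tumour, 557 kept direction and side of the threshold, 42 lost it, 18 gained it and 34 changed sign; the causes were not tested. With the coding share as a covariate, genes called were responders against non-responders 1, responders against stable tumours 0. Over all tested genes that fit called 10% and 0% in these comparisons, against 48.9% and 38.2% without the covariate. Without responders 1 and 4, an alternative added after seeing the data, genes called were responders against stable tumours 2 (22.4% of all tested genes). With no low-count filter, genes called were stable tumours against non-responders 1 (5.78% of all tested genes). With only the compared groups in the fit, genes called were stable tumours against non-responders 2 (12.4% of all tested genes). With limma on log2(RPKM + 1), genes called were non-responders against controls 3 (13.4% of all tested genes). With limma on log2(RPKM + 0.1), genes called were non-responders against controls 3 (14.6% of all tested genes). For ratios with Cd68 as the denominator, genes called were responders against non-responders 2, responders against stable tumours 1, stable tumours against non-responders 4, non-responders against controls 1. Over all genes those ratio fits called 8.09%, 66.9%, 80.5% and 0.699%, in the same order. For ratios with Adgre1 as the denominator, genes called were responders against stable tumours 2, stable tumours against non-responders 2, responders against controls 4. Over all genes those ratio fits called 79.1%, 44.5% and 50.5%, in the same order. With each tumour left out, genes called were 2 to 4 (responders against non-responders), 2 to 6 (responders against stable tumours), 0 to 6 (stable tumours against non-responders), 4 to 7 (responders against controls), 7 to 7 (stable tumours against controls), 4 to 6 (non-responders against controls), and for ratios 4 to 5 (responders against non-responders), 0 to 2 (responders against stable tumours), 1 to 3 (stable tumours against non-responders), 7 to 7 (responders against controls), 3 to 4 (stable tumours against controls), 3 to 5 (non-responders against controls). Over all tested genes these edgeR fits called 40.3 to 55.9%, 28.5 to 49.3%, 8.17 to 21.1%, 59.8 to 67.9%, 36.3 to 40.3% and 8.56 to 23.5%, in the same order. The ratio fits called 18 to 41.3%, 20.1 to 46.1%, 64.1 to 79%, 70 to 75.2%, 87.1 to 90.6% and 59.2 to 70.9%. The lowest count between stable tumours and non-responders came without non-responder 1 or 2, where 6 genes had an unadjusted p under 0.05 in edgeR. Sign changes, as log2 fold changes, were as follows. Adgre1 in responders against non-responders was 0.131 (covariate). Spp1 in responders against stable tumours was -0.188 (limma on log2(RPKM + 1)), -0.198 (limma on log2(RPKM + 0.1)). Spp1 in responders against controls was 0.702 (covariate), 0.224 (without responders 1 and 4). Fabp5 in stable tumours against controls was -0.0233 (DESeq2), -0.0232 (RLE size factors), -0.125 (no low-count filter), -0.012 (protein-coding genes only), -0.108 (limma on log2(RPKM + 1)), -0.109 (limma on log2(RPKM + 0.1)). Relative to Adgre1, Apoe was 0.543 in responders against non-responders, 0.161 in responders against stable tumours, 0.402 in responders against controls, 0.242 in stable tumours against controls. Relative to Adgre1, Spp1 was 0.736 in responders against non-responders. Relative to Adgre1, Cd68 was 0.743 in responders against non-responders, 0.123 in responders against controls, 0.146 in stable tumours against controls. Relative to Adgre1, Lpl was 0.00285 in responders against stable tumours. Relative to Adgre1, Fabp5 was 0.42 in responders against stable tumours. Relative to Adgre1, Trem2 was 0.412 in stable tumours against controls. Relative to Cd68, Apoe was 0.184 in responders against stable tumours, -0.384 in stable tumours against non-responders, 0.279 in responders against controls, 0.0951 in stable tumours against controls, 0.479 in non-responders against controls. Relative to Cd68, Adgre1 was 0.0232 in responders against stable tumours, 0.619 in non-responders against controls. Relative to Cd68, Lpl was 0.0261 in responders against stable tumours. Relative to Cd68, Fabp5 was 0.443 in responders against stable tumours. Relative to Cd68, Trem2 was -0.0354 in stable tumours against non-responders, 0.266 in stable tumours against controls, 0.301 in non-responders against controls. Leaving out single tumours changed the sign of uncalled differences, with ranges of -0.00241 to 0.115 for Apoe relative to Csf1r in stable tumours against non-responders, -0.146 to 0.389 for Apoe in responders against non-responders, -0.266 to 0.0338 for Cd68 relative to Csf1r in responders against non-responders, -0.260 to 0.0201 for Fabp5 relative to Csf1r in responders against stable tumours, -0.141 to 0.146 for Fabp5 in stable tumours against controls, -0.0497 to 0.231 for Lpl relative to Csf1r in non-responders against controls, -0.379 to 0.250 for Spp1 relative to Csf1r in responders against non-responders, -0.383 to 0.230 for Spp1 in responders against controls, -0.121 to 0.537 for Spp1 in responders against stable tumours, -0.601 to 0.0199 for Spp1 in stable tumours against controls, -0.195 to 0.0599 for Trem2 relative to Csf1r in stable tumours against controls. 

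A limit on the responder comparisons is the protein-coding share, low in 7 of 8 responders, which goes with that group. For stable tumours against non-responders the covariate left 6 genes called (17.5% of all tested genes), while single tumours left out took the count to 0. Groups of 5 to 8 tumours leave 95% intervals of Spp1 spanning over 1 log2 unit to each side. Adgre1 was tested on counts only, and its RPKM was not analysed here. Estimated counts of the 9 genes were well above the low-count filter in all libraries, and the precision is set by the spread between tumours.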

Other observations

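The 6 stable tumours had nearly the same order in Gpnmb as in Cd68. Stable tumours 3 and 4 had 654 and 541 CPM of Gpnmb and 207 and 209 CPM of Cd68. Stable tumours 2, 5 and 6 followed in both, with 424, 361 and 359 CPM of Gpnmb and 171, 147 and 109.5 CPM of Cd68. Stable tumour 1 was last, at 256 and 98.6 CPM. Stable tumour 3, first in Gpnmb, had the lowest sum of the 8 melanocyte markers of all 25 tumours, at 228 CPM. Across all 25 tumours, after the group means were subtracted, the correlation of Cd68 with Gpnmb was 0.03. The order in stable tumours was noticed after the values were seen and was not tested.

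Non-responder 6 had 109 CPM of Trem2, 2109 CPM of Apoe and 149 CPM of Cd68, each the highest of the non-responders and inside the stable range, with 400.2 CPM of Gpnmb. Its melanocyte marker sum was 726 CPM.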
